A study of Mus musculus with 20 samples.

Results

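Integrin and laminin chains were followed in the kidneys of mice given puberulic acid and of control mice. The genes were taken by symbol from the deposited table of counts per gene: every row whose symbol starts with Itga or Itgb, or with Lama, Lamb or Lamc and a digit. The rule found 42 of 55822 genes, of which 37 encode chains, 26 of integrins and 11 of laminins, and 5 encode other proteins that share the letters. Values and counts below are for 36 of the 37 chains. RNA sequencing of poly(A)-selected RNA from whole kidney was done on male mice of the inbred strain C57BL/6J at 8 weeks of age. The control group (n = 5) received phosphate-buffered saline (PBS), and the puberulic acid group (n = 5) received 1 mg per day of puberulic acid, a tropolone made by some Penicillium moulds. Both groups were dosed once daily for 6 days, and kidneys were taken on day 7. The series text speaks of oral dosing and the protocol of gavage or intraperitoneal injection, so the route of each group is not known. The series also describes 5 samples for a normal lot and 5 for a toxic lot of the supplement Choleste-Help, given at 1000 mg per day. The names of the 10 columns that remain do not show which lot they hold, so both lots are not analysed here.

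Laminins are secreted trimers of an alpha, a beta and a gamma chain that polymerise into the sheet of every basement membrane. Integrins are receptors on the cell surface, each made of an alpha and a beta chain, that bind laminins, collagens, fibronectin or proteins on other cells and couple them to the actin skeleton. In the kidney they hold podocytes and tubule cells on their basement membranes, and a separate group of integrins is carried by leukocytes.

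Total counts ran from 18409940 to 24705953 per kidney, and levels are given as CPM, counts divided by library size, after trimmed mean of M-values (TMM) scaling. The 2 groups were compared gene by gene with edgeR's quasi-likelihood test, and a gene was called higher or lower where its Benjamini-Hochberg adjusted p over all 16266 genes tested was under 0.05. The tissue showed its defining transcripts: Umod, of the thick ascending limb, was at 3335 CPM and Lrp2, of the proximal tubule, at 1332 CPM in controls (means, n = 5). Across all genes tested, 65.3% were called, 34.2% higher and 31.1% lower, and the groups' CPM ranges did not overlap for 50.1%. All 9 proximal tubule markers examined were called lower, with a summed level of 12750 to 15890 CPM in controls and 1180 to 2113 CPM with puberulic acid. All 7 markers of injured tubule were called higher, with sums of 153 to 177 and 2168 to 3695 CPM. Of 8 markers of the loop of Henle, distal tubule and collecting duct, 6 were called lower, or 2 lower and 1 higher with total-count scaling, and their sums overlapped at 4262 to 6201 and 3291 to 6583 CPM. Such bulk values cannot tell fewer cells of a type from less RNA per cell. Puberulic acid replicate 1 had the highest proximal tubule sum of its group and the lowest level of its group for 12 of the 18 chains called higher. Without it, 17 chains were called higher and 5 lower. The labels number the samples of a group without stating that each is a separate mouse, so p-values measure the spread between these samples.

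Of the 36 chains, 34 passed the filter on low counts, and 18 were called higher and 5 lower with puberulic acid. Their median log2 fold change was 0.73, against 0.05 over all genes tested, of which 34.2% were called higher and 31.1% lower. Of 24 tested integrin chains, 17 were called higher and 2 lower, with a median of 1.26. Of 10 laminin chains, 1 was called higher, 3 lower and 6 neither, with a median of -0.09. With total-count scaling 5 of the laminin chains were called higher and 2 lower, and their median became 0.42. Control and treated ranges were apart for 16 of the 24 integrin and 2 of the 10 laminin chains, against 50.1% of all genes tested. Levels scaled to total counts, with no TMM factor, moved the median of all genes from 0.05 to 0.56. With that scaling 23 chains were called higher and 4 lower, and of all genes 9179 were called higher and 2526 lower, against 5564 and 5058 with TMM.

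**Figure D1:**
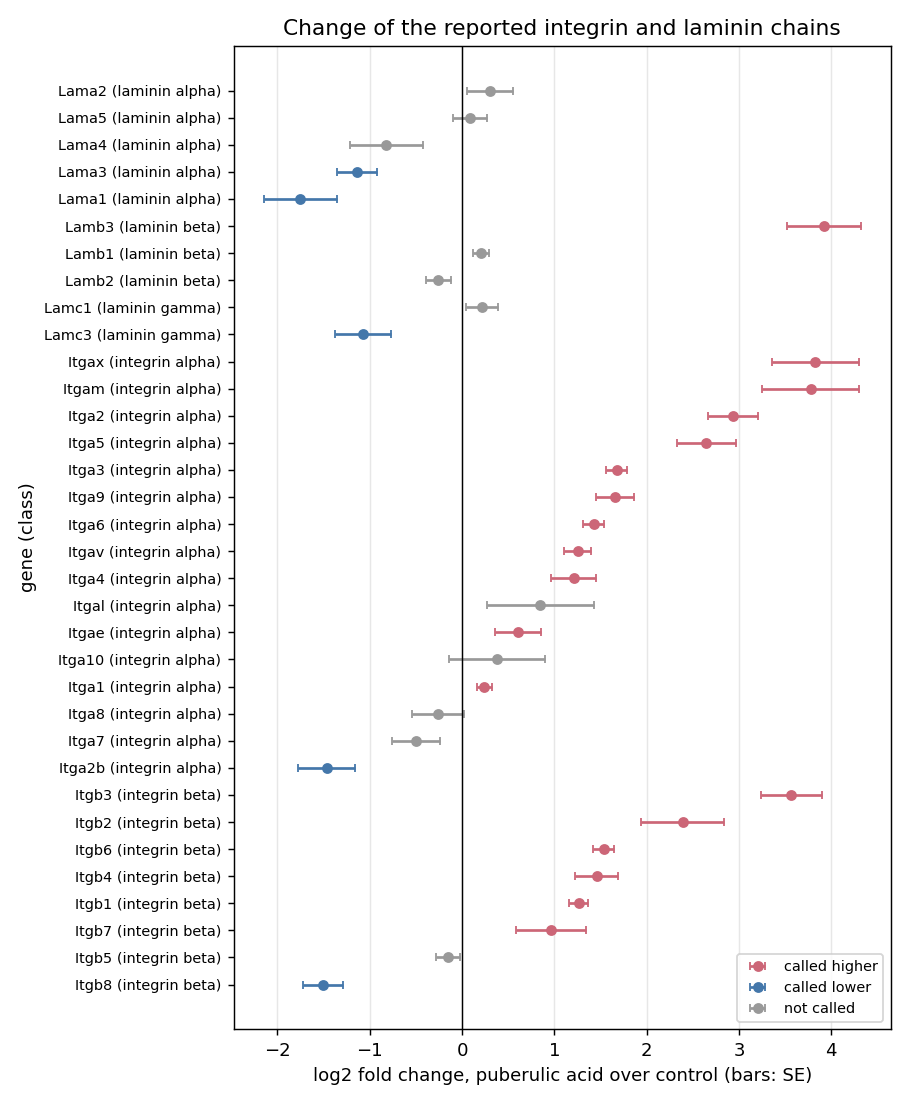
Log2 fold change (x axis, puberulic acid over control) of the 34 tested chains, listed by class on the y axis, with bars for the standard error. Of the integrins, 17 lie to the right as called higher, whereas the laminins split into 1 called higher (Lamb3), 3 called lower (Lama1, Lama3, Lamc3) and 6 not called.

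Lama3 and Lamb3 are the alpha and beta chains of laminin-332, the trimer that fastens basal epithelial cells to their basement membrane. Lamb3 rose to 15.2 times its control mean, while Lama3 fell to 0.455 of its mean (ratios of group means, n = 5 in each group). The groups did not overlap for either chain.

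Lamb3 (ENSMUSG00000026639), the beta chain, was at 2.45, 4.22, 1.72, 7.23 and 1.104 CPM in control replicates 1 to 5. With puberulic acid it was at 53.1, 45.6, 44.1, 44.05 and 67.7 CPM in replicates 1 to 5. Every treated kidney was far above every control, and the controls themselves spread widely around a low level. On the log2 scale the difference was 3.92 ± 0.40 (SE, adjusted p = 4.22e-06).

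Lamb3 has 2 start sites in the RefSeq promoter table (assembly GRCm38.p6), and the window of the upstream one is shown because this chain had the largest log2 fold change of the 34 with all 10 kidneys included. The window covers 250 bases before and 50 from the start on, at chr1:193301744-193302043 on the plus strand. It is written 5′ to 3′ in lower case.
Lamb3: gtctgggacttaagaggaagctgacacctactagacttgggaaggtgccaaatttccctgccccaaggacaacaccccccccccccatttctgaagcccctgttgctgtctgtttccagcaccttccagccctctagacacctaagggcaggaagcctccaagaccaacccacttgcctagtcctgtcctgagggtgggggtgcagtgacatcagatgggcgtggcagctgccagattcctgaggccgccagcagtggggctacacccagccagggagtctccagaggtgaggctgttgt
Promoter windows were found for 23 of the 36 chains, and each was searched on both strands for TGANTCA, the word bound by AP-1, for TATAAA, a core promoter word, and for the NF-kB consensus. A match of one was allowed to overlap a match of another. None of these words is in either Lamb3 window, which says only that the letters are absent from 300 bases. AP-1 words were in 3 chains, Itga3, Itga9 and Itgax, and are in 7.81% of all 32851 windows in the table. The word TATAAA (13.62% of all windows) and the NF-kB consensus (0.41%) were in no chain's window.

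Lama3 (ENSMUSG00000024421), the alpha chain, was at 53.8, 28.8, 22.02, 22.8 and 27.4 CPM in controls, where replicate 1 stood above the others. The 5 treated kidneys lay close together at 15.2, 14.6, 13.1, 13.5 and 14.1 CPM. All 5 were below the lowest control. In the test its log2 fold change was -1.14 ± 0.22 (SE, adjusted p = 0.000667), and with total-count scaling it was -0.62, still called lower. Counts of Lamb3 for each count of Lama3 went from 0.0403–0.317 in controls to 3.13–4.797 with puberulic acid.

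Of the laminin chains usual in mature kidney basement membranes, Lama5, Lamb1, Lamb2 and Lamc1, none was called. Lama5, the main alpha chain of adult glomerular and tubular basement membranes, was at 89.8, 90.3, 101, 98.8 and 79.2 CPM in controls and at 55.5, 122, 119, 103 and 87.6 CPM with puberulic acid. The treated kidneys spread to both sides of the controls, with replicate 1 the lowest of all 10. Its log2 fold change was 0.09 ± 0.18 (SE, adjusted p = 0.688), and it was -0.024 without puberulic acid replicate 2 and -0.004 without replicate 3.

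Lamb1, the widely used beta chain, was at 137, 124, 112, 105 and 112 CPM in controls and 138, 136, 138, 126 and 143 CPM with puberulic acid. Control replicate 1 lay among the treated kidneys, and the other 4 controls were below all of them. The log2 fold change of 0.21 ± 0.09 (SE, adjusted p = 0.053) did not pass the threshold, and it was 0.26 (adjusted p = 0.0134) without control replicate 1. With the filter of 1 CPM in at least 5 samples it was 0.22 (adjusted p = 0.0391). Lamc1, the gamma chain of most laminins, had values of 42.5, 49.98, 66.7, 65.9 and 73.6 CPM in controls and 48.7, 65.7, 75.1, 86.3 and 72.4 CPM in treated kidneys. The ranges overlapped, and its log2 fold change was 0.22 ± 0.17 (SE, adjusted p = 0.28). With total-count scaling Lama5, Lamb1 and Lamc1 were each called higher, at log2 fold changes of 0.60, 0.72 and 0.73, close to the 0.56 of the median gene. Lama2 joined them at 0.82.

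Lamb2, the beta chain of the mature glomerular basement membrane, was at 29.1, 43.97, 44.5, 44.4 and 52.5 CPM in controls and at 34.9, 33.8, 31.9, 38.5 and 40.2 CPM in treated kidneys. The treated values lay within the range of the controls, where replicate 1 was the lowest. Its log2 fold change was -0.26 ± 0.14 (SE, adjusted p = 0.119), which became 0.25 (adjusted p = 0.135) with total-count scaling and -0.38 (adjusted p = 0.00433) without control replicate 1. Podocytes make this chain. Of 6 podocyte markers, 1 was called lower and none higher, or 1 higher and none lower with total-count scaling. Their summed level was 239.9 to 514.9 CPM in controls and 116 to 464 CPM in treated kidneys. Treated replicate 2 held the 116 CPM, and the other treated kidneys lay between 322.5 and 464 CPM. The part of podocytes in the levels of Lamb2 was not tested.

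Lama1, an alpha chain of the embryonic kidney that persists in tubular basement membranes, was at 24.2, 13.8, 27.4, 32.2 and 42.3 CPM in controls and 12.6, 4.98, 14.5, 3.59 and 5.95 CPM in treated kidneys. Treated replicate 3 lay above the lowest control, replicate 2, and the other 4 treated kidneys were below all controls. The fitted log2 fold change was -1.75 ± 0.40 (SE, adjusted p = 0.00202). Lamc3, a gamma chain of restricted distribution, was at 5.65, 9.02, 9.48, 11.4 and 11.6 CPM in controls and 5.79, 2.43, 3.47, 3.34 and 7.26 CPM in treated kidneys. Its ranges overlapped through control replicate 1 and treated replicates 1 and 5. The log2 fold change of -1.07 ± 0.30 (SE, adjusted p = 0.00776) became -0.55 with total-count scaling, with an adjusted p of 0.13, so that the call was lost.

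Lama2 and Lama4, alpha chains of muscle, mesangium and vessels, were not called. Lama2 went from a mean of 11.6 ± 2.35 to 14.2 ± 5.28 CPM, and Lama4 from 8.23 ± 4.93 to 4.64 ± 1.59 CPM (SD, n = 5 each). Lama4 was uneven among controls, with replicates 3 and 4 near 13.6 CPM and the other 3 between 3.71 and 5.84 CPM. Its log2 fold change was -0.82 ± 0.40 (SE, adjusted p = 0.0868). It was -1.02 without control replicate 1, -0.99 without control replicate 2 and -1.05 without puberulic acid replicate 5, each called lower. Of 7 endothelial markers, 2 were called lower and none higher, or none in either direction with total-count scaling. Their sums overlapped, at 220.8 to 358.9 CPM in controls and 115 to 293 CPM in treated kidneys. Treated replicate 2 held the 115 CPM, and was also the lowest of its group for Lama2, Lama4, Lamc3 and Itga8. The part of endothelial cells in the levels of Lama4 was not tested.

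**Figure D2:**
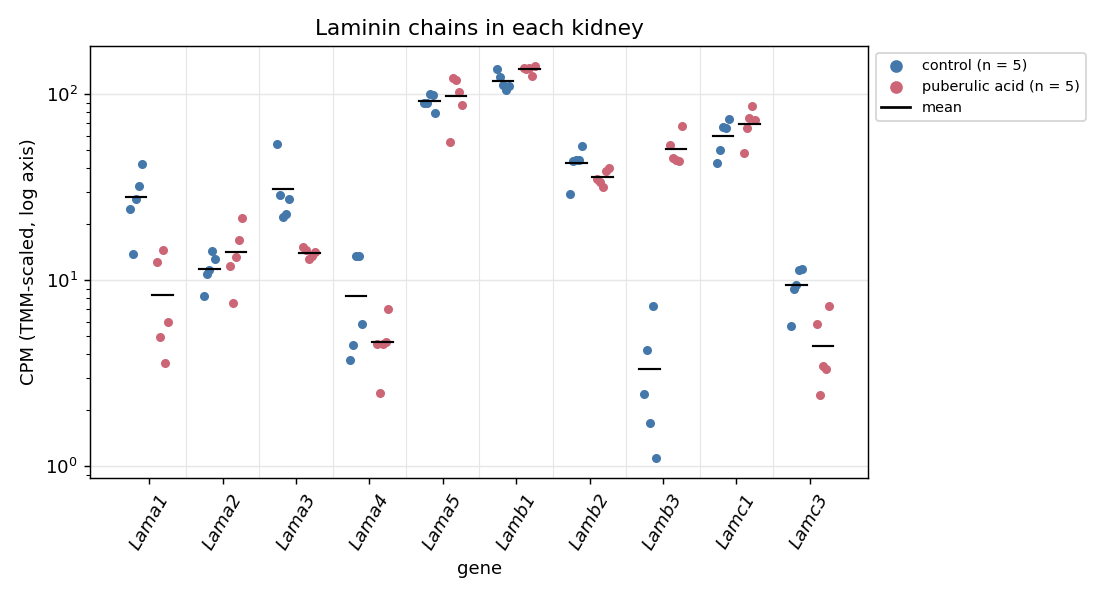
CPM of 10 laminin chains (y axis, log scale) in the 5 control and 5 puberulic acid kidneys, one point a kidney and a bar at each group mean. Lamb3 stands apart upward and Lama3 downward, while the points of Lama5, Lamc1 and Lamb2 overlap.

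Levels of different genes can be compared only per length, so CPM was divided by the length of each gene's longest protein-coding transcript in GENCODE M21. The transcript forms used in these kidneys are not known, which limits the scale. The share of Lamb3 among beta chains went from 2.41% ± 1.84 (SD, n = 5) to 25.7% ± 2.88 (SD, n = 5), and Lamb1 was the most abundant beta chain in all 10 kidneys. Lama5 had the highest mean CPM per kb among alpha chains in both groups. A share within a class moves when any of its members moves, so these values describe the make-up and not each chain's change.

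Itga2 and Itga1 are next to each other in the genome, with no protein-coding gene between them in the RefSeq order (GRCm38.p6). Their log2 fold changes were 2.94 and 0.24. Itgam, Itgax and Itgad form another such run. Itgam and Itgax had log2 fold changes of 3.78 and 3.83, and Itgad was not tested.

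**Figure D3:**
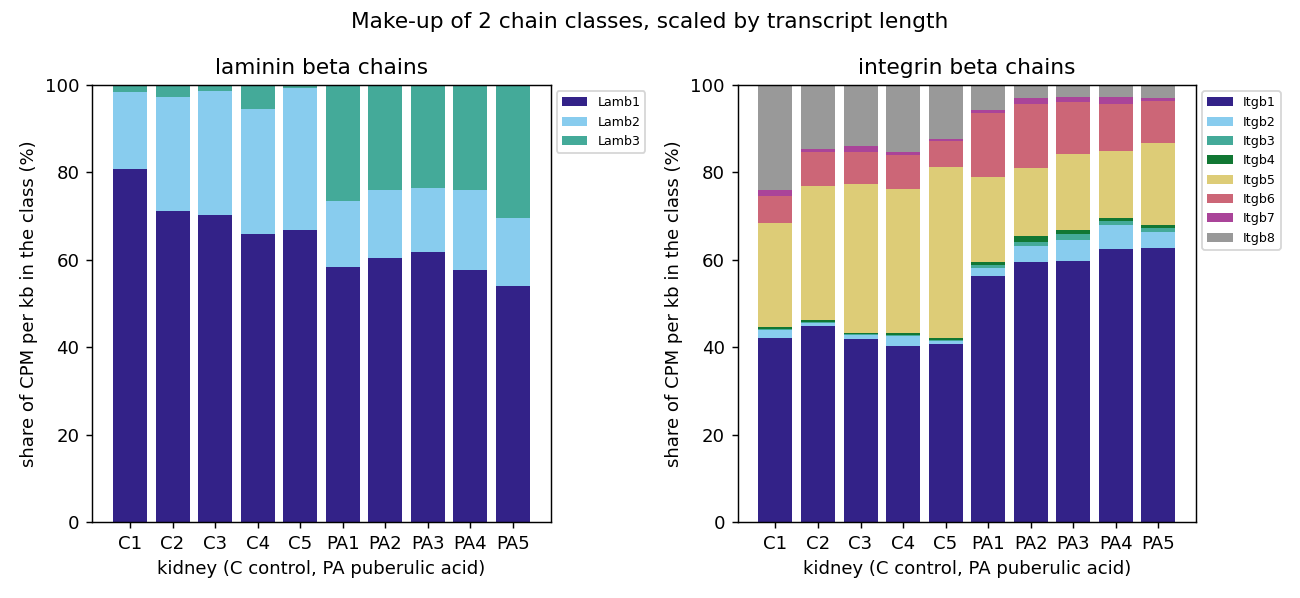
Share of CPM per kb (y axis, percent) held by each chain within the laminin beta and integrin beta classes, one stacked bar for each of the 5 control (C) and 5 puberulic acid (PA) kidneys. Lamb3 grows from a mean of 2.41% to 25.7% of the laminin beta chains, and Itgb8 shrinks from 16.1% to 3.46% of the integrin beta chains.

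Of 5 integrin chains that bind laminin, 4 rose. Itgb1, the partner of most alpha chains outside the leukocytes and the most abundant beta chain per length in every kidney, rose 2.41-fold. The alpha chains Itga3 and Itga6 rose 3.19-fold and 2.69-fold, and Itgb4, which pairs with Itga6 in hemidesmosomes, 2.76-fold (ratios of means, n = 5 in each group). The groups did not overlap for these 4 chains. Itga7, a laminin-binding chain of muscle, was not called.

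Itgb1 (ENSMUSG00000025809) was at 208, 222, 191, 207 and 197 CPM in the controls. Treated kidneys had 399.7, 453, 505, 551 and 557 CPM, and the lowest of them, replicate 1, was well above the highest control. Its log2 fold change was 1.27 ± 0.10 (SE, adjusted p = 7.94e-07). Itga3 (ENSMUSG00000001507), the chain that holds podocytes and collecting duct cells on laminin, was at 34.4, 36.3, 39.3, 35.8 and 39.2 CPM in controls. Its treated values were 87.1, 136, 120.2, 133 and 114 CPM. The controls lay within a few CPM of each other, and replicate 1 was the lowest treated kidney. The log2 fold change was 1.67 ± 0.12 (SE, adjusted p = 2.52e-07).

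Itga6 (ENSMUSG00000027111) was at 59.2, 81.8, 62.8, 74.9 and 72.01 CPM in controls and 168, 223, 199, 178 and 173 CPM in treated kidneys. On the log2 scale the difference was 1.43 ± 0.11 (SE, adjusted p = 6.72e-07). Here replicate 1 was not apart from the others. Itgb4 (ENSMUSG00000020758) was at 4.45, 4.48, 3.31, 4.36 and 4.42 CPM in controls, with 4 values almost equal and replicate 3 lower. With puberulic acid it was at 6.64, 16.8, 13.7, 11.8 and 8.997 CPM, and replicate 2 was the highest. On the log2 scale the difference was 1.46 ± 0.23 (SE, adjusted p = 0.000166). Itga7 had 7.02, 9.54, 6.17, 8.54 and 11.4 CPM in controls and 3.04, 6.73, 8.77, 6.64 and 5.08 CPM in treated kidneys. Its ranges overlapped and its log2 fold change of -0.50 ± 0.26 (SE, adjusted p = 0.117) became 0.01 with total-count scaling. Without puberulic acid replicate 3 it was -0.68 (adjusted p = 0.0439).

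The alpha v chain and its beta partners moved in different directions. Itgav pairs with Itgb1, Itgb3, Itgb5, Itgb6 or Itgb8 to bind the RGD motif in fibronectin, vitronectin, osteopontin and latent TGF-beta. Itgav, Itgb6 and Itgb3 rose, Itgb8 fell and Itgb5 was not called. Itgb6 and Itgb8 are the partners through which Itgav activates latent TGF-beta.

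Itgav (ENSMUSG00000027087), the alpha chain with the highest mean CPM per kb in both groups, was at 163, 133, 168, 116 and 178 CPM in controls. It was at 295, 426, 404, 357 and 324 CPM with puberulic acid, all above the highest control. In the test its log2 fold change was 1.25 ± 0.14 (SE, adjusted p = 1.02e-05). Itgb6 (ENSMUSG00000026971), an epithelial beta chain, was at 38.2, 48.6, 42.0, 49.8 and 35.97 CPM in controls and at 129.7, 140.1, 126, 117 and 109 CPM in treated kidneys. No treated kidney came near the controls, and the log2 fold change was 1.53 ± 0.11 (SE, adjusted p = 3.06e-07).

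Itgb8 (ENSMUSG00000025321) was at 260.1, 159, 139.9, 174 and 132 CPM in controls, replicate 1 being the highest. In treated kidneys it was at 90.7, 50.1, 52.4, 51.95 and 59.2 CPM, with replicate 1 above the other 4. All treated kidneys were under all controls. The fitted log2 fold change was -1.51 ± 0.21 (SE, adjusted p = 6.53e-05), and it was -0.99 and still called with total-count scaling. Itgb6 counts for each Itgb8 count went from 0.147–0.306 in controls to 1.43–2.79 with puberulic acid. In controls Itgb8 was the more numerous in each kidney and with puberulic acid Itgb6 was, in counts.

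Itgb3 (ENSMUSG00000020689), shared by alpha v and the platelet chain Itga2b, was low in controls, at 0.342, 1.58, 0.891, 0.748 and 1.49 CPM, which are 6 to 30 counts. Treated kidneys had 8.87, 12.9, 15.2, 10.8 and 12.4 CPM. The log2 fold change was 3.56 ± 0.33 (SE, adjusted p = 2.06e-06). Itga2b (ENSMUSG00000034664) went the other way, from 11.2, 5.96, 10.6, 7.35 and 5.91 CPM in controls to 2.34, 2.98, 5.38, 2.404 and 1.83 CPM. The ranges came close but did not overlap, and the log2 fold change was -1.46 ± 0.31 (SE, adjusted p = 0.00127), or -0.96 with total-count scaling, still called. Markers of platelets and megakaryocytes were at a low level in both groups, with sums of 1.12 to 2.42 CPM in controls and 2.19 to 6.48 CPM in treated kidneys. Of these 6 markers, Pf4 and Ppbp were tested and both were called higher. Their part in the levels of Itgb3 and Itga2b was not tested.

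Itgb5, a receptor chain for vitronectin, had the second highest mean CPM per kb among beta chains in controls, after Itgb1. Its values were 101, 130.1, 133, 146 and 163 CPM in controls and 119, 101, 128, 116 and 142 CPM in treated kidneys, with overlap throughout. On the log2 scale the difference was -0.15 ± 0.13 (SE, adjusted p = 0.329), and with total-count scaling it was 0.36 (adjusted p = 0.0337), below the 0.56 of the median gene.

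**Figure D4:**
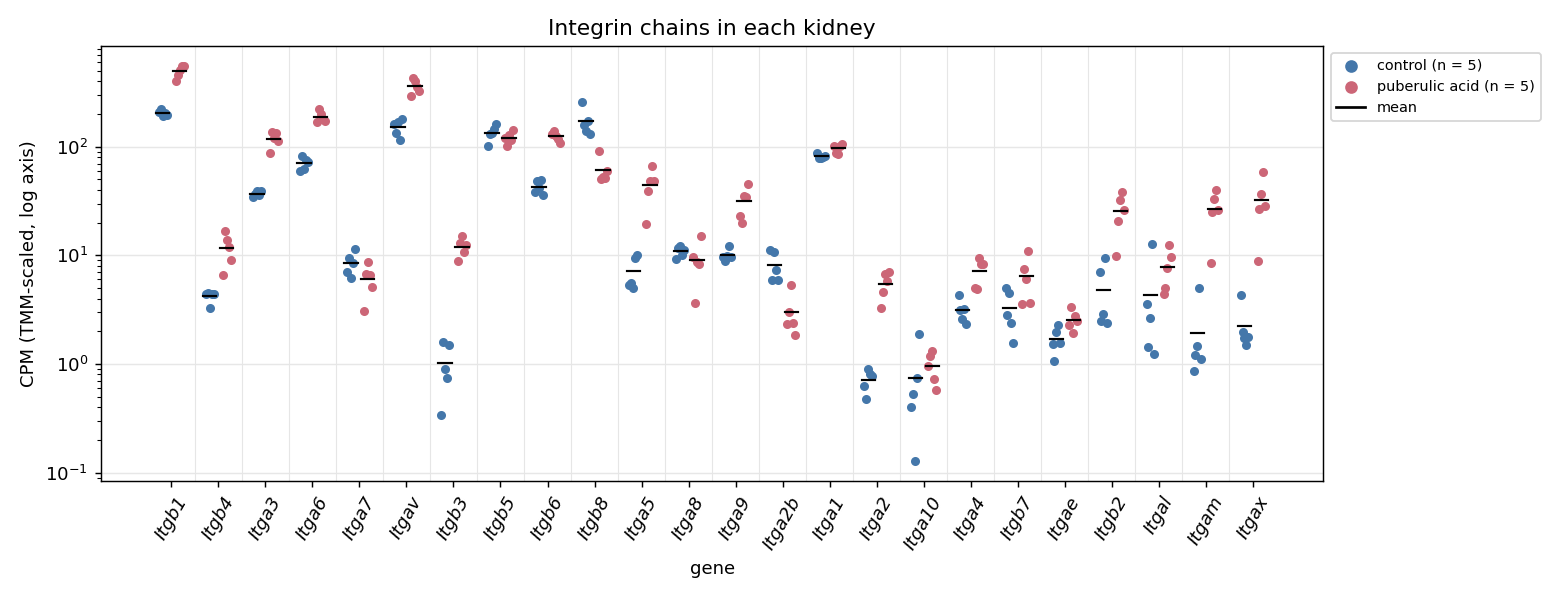
CPM of the 24 tested integrin chains (y axis, log scale) in each of the 5 control and 5 puberulic acid kidneys, with a bar at each group mean. Itgb8 and Itga2b are the 2 chains whose treated points all lie below the controls, and Itgam, Itgax, Itgb3 and Itga2 have the largest log2 fold changes upward.

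Itga5, which pairs with Itgb1 as the classical fibronectin receptor, and Itga9 were called higher, whereas Itga8 was not called. Itga5 (ENSMUSG00000000555) was at 5.31, 5.59, 5.03, 9.53 and 10.1 CPM in controls and at 19.5, 39.02, 48.6, 66.7 and 48.3 CPM with puberulic acid. Treated replicate 1 was the lowest of its group and still above every control, and replicate 4 was the highest. In the test its log2 fold change was 2.64 ± 0.32 (SE, adjusted p = 1.74e-05). Itga9, a receptor chain for tenascin-C and osteopontin, rose from 9.64, 8.86, 9.93, 12.1 and 9.68 CPM in controls to 23.2, 19.98, 35.1, 34.5 and 45.5 CPM. All treated kidneys lay above the controls, and replicate 5 was the highest. Its log2 fold change was 1.66 ± 0.21 (SE, adjusted p = 2.37e-05).

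Itga8, the mesangial chain that binds nephronectin, was not called. It was at 9.24, 11.6, 12.2, 10.1 and 11.3 CPM in controls and 9.69, 3.62, 8.599, 8.39 and 15.01 CPM in treated kidneys, which spread to both sides of the controls. The log2 fold change of -0.26 ± 0.28 (SE, adjusted p = 0.434) became 0.26 (adjusted p = 0.442) with total-count scaling. Among 9 markers of mesangium, smooth muscle and fibroblasts, 5 were called higher and 1 lower, with sums of 182 to 471 CPM in controls and 395 to 976 CPM in treated kidneys. Of markers of contractile cells, Acta2 and Tagln were called higher, at log2 fold changes of 2.77 and 3.21, while Myh11 was not called, at -0.75. Gata3 was the marker called lower, at -0.84, a call lost with total-count scaling. Their part in the levels of Itga8 was not tested.

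The collagen-binding chains were at very different levels. Itga2 (ENSMUSG00000015533), of epithelia and platelets, was at 0.628, 0.474, 0.891, 0.8101 and 0.779 CPM in controls, or 9 to 14 counts a library. In treated kidneys it was at 3.303, 4.64, 6.74, 5.79 and 7.005 CPM. The fitted log2 fold change was 2.94 ± 0.27 (SE, adjusted p = 2.15e-06). Itga1, which binds collagen IV, was far more abundant, and its call rests on a small difference. It was at 87.8, 78.9, 78.7, 79.8 and 82.9 CPM in controls and 101, 86.98, 86.6, 101 and 107 CPM in treated kidneys, and the ranges overlapped. Its log2 fold change was 0.24 ± 0.08 (SE, adjusted p = 0.0203), a call lost without control replicate 2, 3 or 4 or puberulic acid replicate 1, 4 or 5 (adjusted p 0.055 to 0.11) and without the filter on low counts (0.065).

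Itga10, a chain of cartilage, was at or under 1.88 CPM in all kidneys and not called. Itga11, a fibroblast collagen receptor, had 2, 5, 2, 6 and 5 counts in the controls and 6, 20, 20, 18 and 43 with puberulic acid. It did not pass the filter on low counts, so it was not tested in the comparison as described. DESeq2 and the fit with no filter, both planned as alternatives, called it higher at log2 fold changes of 1.74 (adjusted p = 0.00703) and 1.73 (adjusted p = 0.0131). The highest control and the lowest treated kidney had equal counts. In CPM that treated kidney, replicate 1, was at 0.223, below control replicates 2, 4 and 5 at 0.264, 0.374 and 0.325. The other 4 treated kidneys were above all controls.

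Of 8 integrin chains that leukocytes carry, 6 were called higher, against 34.2% of all genes tested. Itgal was not called and Itgad was not tested. The summed level of the 8 chains was 11.9 to 36.6 CPM in controls and 42.4 to 172 CPM in treated kidneys. Itgam (CD11b) and Itgax (CD11c), which pair with Itgb2, had log2 fold changes near that of Lamb3, and Itgb2 itself was called higher. Itgal is the alpha chain of LFA-1.

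Itgam (ENSMUSG00000030786) was at 0.856, 1.21, 1.46, 5.05 and 1.104 CPM in controls, where replicate 4 was apart from the other 4. In treated kidneys it was at 8.46, 24.8, 32.9, 40.2 and 26.1 CPM, replicate 1 being the lowest and still above every control. The fitted log2 fold change was 3.78 ± 0.53 (SE, adjusted p = 5.46e-05), and it was 4.498 without control replicate 4. Itgax (ENSMUSG00000030789) was at 4.28, 1.95, 1.72, 1.496 and 1.75 CPM in controls and 8.91, 26.7, 37.02, 59.1 and 28.6 CPM in treated kidneys. Control replicate 1 was the highest of its group, and treated replicate 1 again the lowest. The log2 fold change was 3.83 ± 0.47 (SE, adjusted p = 2.12e-05).

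The promoter window of Itgax is shown because Itgax had the largest log2 fold change of the 3 chains whose windows hold an AP-1 word. It lies at chr7:128129300-128129599 on the plus strand (RefSeq, GRCm38.p6), and capitals mark the word, which begins 56 bases before the start site. A match of this kind is a description of the letters and not a binding site.
Itgax: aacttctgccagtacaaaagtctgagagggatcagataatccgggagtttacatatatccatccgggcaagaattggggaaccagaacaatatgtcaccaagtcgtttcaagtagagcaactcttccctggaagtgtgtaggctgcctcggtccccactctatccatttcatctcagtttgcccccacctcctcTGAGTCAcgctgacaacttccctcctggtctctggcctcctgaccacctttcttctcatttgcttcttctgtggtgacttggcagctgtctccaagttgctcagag

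Itgb2 (ENSMUSG00000000290), the beta chain of both, was at 7.08, 2.48, 2.86, 9.41 and 2.403 CPM in controls and 9.76, 20.7, 32.5, 38.2 and 25.9 CPM in treated kidneys. Control replicates 1 and 4 were the high ones, and treated replicate 1 was only just above them. On the log2 scale the difference was 2.39 ± 0.45 (SE, adjusted p = 0.000584). Itgal had 3.595, 1.42, 2.67, 12.8 and 1.23 CPM in controls and 4.38, 5.03, 7.67, 12.3 and 9.61 CPM with puberulic acid. Control replicate 4 was above all the treated kidneys. In the test its log2 fold change was 0.85 ± 0.57 (SE, adjusted p = 0.213), against 1.79 (adjusted p = 0.00254) without that control.

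Itga4, which binds VCAM-1 on endothelium and pairs with Itgb1 or Itgb7, was at 4.34, 3.11, 2.61, 3.18 and 2.34 CPM in controls and 5.01, 4.94, 9.36, 8.39 and 8.36 CPM in treated kidneys. The ranges came close without overlap, and the log2 fold change was 1.21 ± 0.24 (SE, adjusted p = 0.000888). Itgb7 and Itgae, which together bind E-cadherin and mark lymphocytes within epithelia, were called higher with overlapping ranges and by narrow margins. Itgb7 differed by 0.96 ± 0.38 (SE, adjusted p = 0.0415) on the log2 scale. It was no longer called without control replicate 2, 4 or 5 or puberulic acid replicate 2, 3 or 4 (adjusted p 0.0648 to 0.148). Itgae differed by 0.61 ± 0.25 (SE, adjusted p = 0.0465) on the log2 scale. Its call was lost with median-of-ratios factors (0.0507), without the filter (0.0894) and also without control replicate 1, 2, 3 or 5 or puberulic acid replicate 1, 2, 4 or 5 (0.0549 to 0.131). Itgad had 0 counts in all controls and at most 4 counts in a treated kidney, and was not tested.

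General leukocyte markers moved with these chains: 6 of 6 were called higher, and their sum was 58.9 to 118 CPM in controls and 160 to 540 CPM in treated kidneys. Ptprc (CD45), carried by all leukocytes, was at 12.6, 7.33, 5.03, 10.1 and 8.12 CPM in controls and 14.7, 26.3, 36.9, 46.0 and 39.9 CPM in treated kidneys. Of 10 macrophage and monocyte markers, 8 were called higher, with sums of 103 to 237 and 261 to 890 CPM, while Csf1r and Adgre1 were not called. Of 7 neutrophil markers, 2 of 3 tested were called higher, at sums of at most 2.24 and 6.99 CPM, and Ly6g had 0 counts in every kidney. Of 11 lymphocyte markers, 2 of 7 tested were called higher, and their sums overlapped, at 5.20 to 9.13 and 5.92 to 15.9 CPM. Of 5 dendritic cell markers, 3 were called higher. With total-count scaling all 10 macrophage and monocyte markers, 4 lymphocyte markers and 4 dendritic cell markers were called higher.

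Against Ptprc, Itgam counts for each Ptprc count went from 0.0682–0.5 in controls to 0.577–0.945 with puberulic acid, and Itgax counts from 0.148–0.342 in controls to 0.608–1.284 with puberulic acid. Neither ratio overlapped between the groups. Itgb2 counts for each Ptprc count, at 0.296–0.932 in controls to 0.65–0.879 with puberulic acid, did overlap. Those of Itgal lay at 0.152 to 1.27 in controls and 0.191 to 0.299 in treated kidneys. These ratios are descriptions of the libraries, and the part of cell numbers in the rise of the leukocyte chains was not tested.

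Among the 5 rows that are not chains, Itgb1bp1, a regulator that binds the Itgb1 tail, was not called, at -0.15 ± 0.09 (SE, adjusted p = 0.185) on the log2 scale. Itgb3bp, which despite its name encodes a centromere protein, was lower, at 10.2 ± 2.65 CPM in controls and 5.99 ± 1.01 CPM in treated kidneys (SD, n = 5 in each group, adjusted p = 0.00334). That call was lost with total-count scaling, at a log2 fold change of -0.26 (adjusted p = 0.221). Itgb1bp2, Itgb2l and Itgbl1 were under 1 CPM in every kidney and were not tested.

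Of 22 listed ligands of integrins, 17 were called higher, 1 lower and 2 neither, and Vtn and Madcam1 were too low to test. Their median log2 fold change was 2.72, against 0.05 over all genes tested, of which 34.2% were called higher and 31.1% lower. Fgb, the beta chain of fibrinogen, had the largest log2 fold change, at 5.23 ± 0.58 (SE, adjusted p = 8.25e-06). Tnc, the tenascin bound by Itga9, averaged 3.75 ± 0.617 CPM in controls and rose to 114 ± 52.3 CPM (SD, n = 5 each). Spp1, osteopontin, and Fgg had log2 fold changes of 4.48 and 4.45. Icam2 and Ltbp1 were not called. Of the ligands of the chains above, Fn1 (for Itga5), Vcam1 (for Itga4) and Npnt (for Itga8) had log2 fold changes of 2.94, 3.45 and 0.71. Vcam1 is also among the injured tubule markers counted above, and which cells carried it was not tested. Adam9 was lower at -0.60, a call lost with total-count scaling.

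Of 19 partners of laminin in the basement membrane, 8 were called higher, 5 lower and 6 neither, with a median log2 fold change of 0.34. Over all genes tested, 34.2% were called higher and 31.1% lower, with a median of 0.05. With total-count scaling 12 of the 19 partners were called higher and 4 lower, with a median of 0.84. Agrn and Dag1 were among those higher with that scaling, at 0.84 and 0.72. The collagen IV chains of the ubiquitous network, Col4a1 and Col4a2, were among those higher, with log2 fold changes of 1.71 and 1.497. The chains of the glomerular and distal tubular network, Col4a3, Col4a4 and Col4a5, were lower, at -1.52, -1.63 and -0.88. Col15a1, Sparc and Nid1, which links laminin to collagen IV, rose by 2.71, 1.95 and 1.86 on the log2 scale. Fras1, a matrix protein beneath epithelia, was lower at -1.51. Agrn and Hspg2, heparan sulfate proteoglycans, were not called. Bcam, a non-integrin receptor for Lama5, rose by 0.65, and Dag1, dystroglycan, was not called.

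Of 28 genes listed as adaptors between integrin tails and actin, 15 were called higher, 5 lower, 7 neither, and 1 was not tested. The list also holds 3 of the rows that are not chains, Itgb1bp1, Itgb1bp2 and Itgb3bp, and 1 of the 5 lower calls is the centromere gene Itgb3bp. The median log2 fold change was 0.33, against 0.05 over all genes tested, of which 34.2% were called higher and 31.1% lower. Parvg and Fermt3, both of blood cells, rose by 2.75 and 2.09 on the log2 scale. Actn1, which bundles actin, rose by 2.31, and Vcl, vinculin, by 1.43. Tln2, at 195 ± 27.3 CPM in controls, fell to 37.8 ± 13.1 CPM (SD, n = 5 each), while Tln1 was at 198 ± 20.5 and 169.7 ± 15.2 CPM and not called. For Tln1 the log2 fold change of -0.23 became 0.28 with total-count scaling, called higher (adjusted p = 0.0247), and DESeq2 called it lower (adjusted p = 0.0421). The paralogs Lims1 and Lims2 were called in opposite directions, at 1.04 and -1.03. Ilk and Rsu1, which bind the Lims proteins, were not called. With total-count scaling 22 genes of the list were called higher and 3 lower.

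Of 7 hemidesmosome partners of Itga6 and Itgb4, 4 passed the filter, and 3 were called higher and 1 lower. Over all genes tested these shares were 34.2% and 31.1%. The median log2 fold change of the 4 partners was 1.00. Krt5, a keratin of basal epithelial cells, averaged 0.278 ± 0.1505 CPM in controls and 19.5 ± 3.75 CPM in treated kidneys (SD, n = 5 each). In the test its log2 fold change was 6.07 ± 0.28 (SE, adjusted p = 1.55e-08). Plec, the plectin that ties Itgb4 to keratin, rose by 1.66, and Cd151 by 0.34. Dst was lower, at -0.48 with overlapping ranges, and this call was lost with total-count scaling. Col17a1, Krt14 and Krt17 were under 1 CPM on average in both groups and not tested. Urothelium, which lines the renal pelvis, also carries Krt5. Of 6 urothelial markers, the 5 others were not called, and their sum without Krt5 was 2.6 to 10.02 CPM in controls and 7.24, 2.9, 31.98, 1.43 and 4.02 CPM in treated replicates 1 to 5. Of the treated kidneys, replicate 3 was above all controls in this sum. The part of urothelium in the level of Krt5 was not tested.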

How the data were processed

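Whole-kidney poly(A) RNA was sequenced with a strand-marking kit, per the labels' protocols. The deposited table holds the authors' estimated counts per gene, which need not be whole numbers. The submitters' processing notes name fastp 0.22.0, FastQC 0.12.1, MultiQC 1.28, Salmon 1.10.3, DESeq2 and the genome build GRCm39, without saying what each did, and the annotation is not given in the sources used here. An estimated count shares reads between similar transcripts, so levels of near-identical genes are less certain.

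From these values, expected counts were rounded to whole numbers and symbols were matched for 51344 of 55822 identifiers, which hold 99.29% of the counts. 1 member is not reported here and enters no count of chains. Groups were taken from the labels, 5 control and 5 puberulic acid samples. The other 10 sample columns were not used. edgeR 4.0.16 in R 4.3.3 fitted all genes with TMM factors, its default filter on low counts and the quasi-likelihood test, with Benjamini-Hochberg adjustment over the 16266 genes that passed. Control TMM factors lay between 0.827 and 0.848 and treated ones between 1.17 and 1.26. A count of 3 in a library stands for 0.0964 to 0.195 CPM, and counting error below that level is large. The alternatives were median-of-ratios factors (RLE), total-count scaling, leaving the filter out, at least 1 CPM in 5 samples, DESeq2 1.42.0, a robust fit, a replicate block and leaving out each sample. The code was tested on simulated data in which a small part of the genes changed, equally up and down. The shift in TMM factors between the real groups was not simulated.

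Members, partner lists and marker lists were chosen with earlier results of these data known, so no list is independent evidence. Values in every sample are given for called chains at a mean of at least 1 CPM and a log2 change of at least 1, and for their partner chains. Of each partner list, up to 4 called genes with the largest change and up to 2 not called are named. The planned naming of the 2 most abundant genes of each marker list was not followed: marker genes are named where a result turns on them, and were chosen after their values were seen. Others named beside a result, among them Fn1, Vcam1, Npnt, Adam9, Vcl, Tln1, the Lims genes, the further collagen IV chains, Fras1, Bcam and Dag1, were chosen after their values were seen. Promoter windows and gene order come from RefSeq (GRCm38.p6), a different build from the counts, and were not joined to them by position. Lengths are of the longest protein-coding GENCODE M21 transcript.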

Additional observations from a re-analysis of the deposited data

Results flagged for a closer look

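Values of 66 groups of 5 kidneys were searched for a kidney far from the rest of its group, that is, with a gap to its nearest neighbour of over 0.71 of the group's whole range. There were 6 such groups, from 4 kidneys. Chance alone gives about 3.3 if values are independent and normally distributed. Chains measured in the same kidneys are not independent, so that number is only a rough guide.

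In controls, replicate 4 was the highest for Itgam at 5.05 CPM (gap 0.855 of the range) and for Itgal at 12.8 CPM (0.795). Control replicate 1 was the highest for Itgax at 4.28 CPM (0.836) and for Lama3 at 53.8 CPM (0.785). Control replicate 3 was the lowest for Itgb4 at 3.31 CPM (0.898). Among treated kidneys, replicate 1 was the highest for Itgb8 at 90.7 CPM (0.777). No kidney was left out of the values reported for these chains.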

How the results depend on the processing

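With total-count scaling 9179 genes were called higher and 2526 lower. Under it 3 genes of the adaptor list, 0 ligands and 0 hemidesmosome partners were called lower, and 4 chains that were not called changed sign, Itga7 to 0.011, Itga8 to 0.26, Itgb5 to 0.36 and Lamb2 to 0.25 in log2 fold change. Total-count scaling leaves out the TMM factors, which differ between the groups. Lama5 was at -0.024 without puberulic acid replicate 2 and -0.004 without replicate 3, and reached 0.212 without replicate 1. Hemidesmosome partners called higher numbered 5 without a filter and with DESeq2, which test more of the list, and 3 to 5 when a sample was left out.

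Of the chains, 15 to 19 were called higher and 5 to 7 lower when a sample was left out, and 17 to 23 higher and 4 to 5 lower under the other settings. Same-numbered samples did not deviate together (correlations -0.172 to 0.039). The labels state no pairing, and these correlations cannot exclude one in the handling of the samples. With the replicate block 17 chains were called higher and 5 lower. Under the block Itgal was called at 1.23 (adjusted p = 0.0374), and the calls of Itgb7 (0.0594) and Itgae (0.0956) were lost. Depth limits what can be said of Itgad, at 0 to 4 counts per library, and of Itga11, at 2 to 6 counts in controls.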
